A study of Mus musculus with 8 samples.

Results

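The comparison described here sets a single X-ray dose of 10 Gy against a single dose of 2 Gy in LLC1 cells, the mouse Lewis lung carcinoma line, taken from a C57BL/6 lung tumour and grown in culture. It covers 5 of the 8 dual-colour arrays of the series: the 3 arrays labelled with a single dose of 2 Gy and the 2 labelled with a single dose of 10 Gy. RNA was collected 4 h after treatment, and every array held RNA of irradiated cells in Cy5 beside RNA of untreated cells in Cy3. The third replicate of 10 Gy was not analysed here. The other 3 arrays, of 5 fractions of 2 Gy (5x2Gy), enter through the estimate of the spread, the filter on low signal, the choice of probe and the normalisation of single channels. All groups share the cell line and the untreated control, no agent other than X-rays is named, and the labels call the arrays biological replicates. Values are log2 ratios of irradiated over untreated cells. A difference is the mean of the 10 Gy arrays minus the mean of the 2 Gy arrays, with its SE from limma (n = 2 and n = 3). A gene was called when its Benjamini-Hochberg adjusted p was under 0.05.

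Ionising radiation breaks DNA, and the damage kinases ATM and ATR stabilise the transcription factor p53. p53 switches on genes that stop the cell cycle (Cdkn1a), trigger cell death (Bbc3, Pmaip1, Fas) and restrain p53 itself (Mdm2, Ppm1d). Cdkn1a encodes p21, which inhibits the cyclin-dependent kinases, and the DREAM complex then holds down the genes of G2 and mitosis.

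The 10 Gy arrays differed from each other more than the arrays of any other group. Over the 13411 genes tested, the SD of the log2 ratios was 0.694 on 10 Gy replicate 1 and 0.464 on replicate 2, against 0.330 to 0.367 on the 2 Gy arrays. Replicate 1 shared a slide with all 2 Gy arrays, whereas replicate 2 lay on the slide of the 5x2Gy arrays, as the image names in the file headers give it. Between the 10 Gy arrays r was 0.427, between pairs of 2 Gy arrays 0.651 to 0.813. Replicate 2 correlated with the 5x2Gy arrays of its slide at 0.748 to 0.854, a range that overlaps the 0.829 to 0.886 among those arrays. Whether its label holds was not tested, and it is grouped here as labelled. These r are across genes, which are not independent replicates. Difference between slides and difference between replicates cannot be told apart for the 10 Gy pair, so each 10 Gy array is also given on its own. Relative to the 2 Gy mean, the 10 Gy arrays lay on opposite sides for 6299 genes, 47.0% of all. Their medians of all genes were -0.05 and -0.02, but normalisation within each array centres such medians near 0. A general shift between the arrays can therefore not be read from them, and the spread differed as given above. In each channel of these 5 arrays 37.1% to 49.1% of probes exceeded background, and precision is limited by how few arrays there are.

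**Figure D1:**
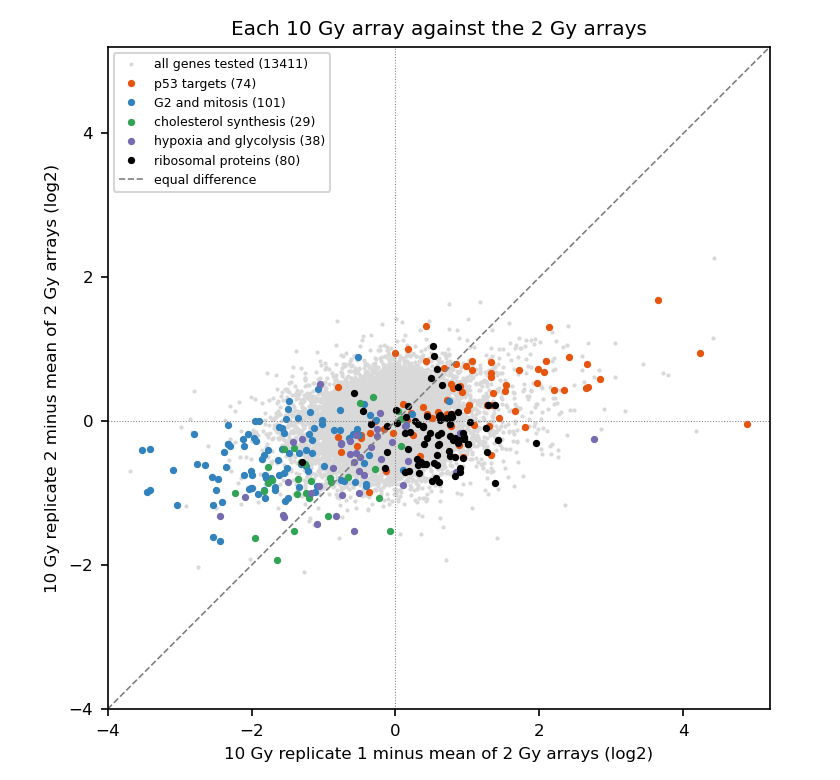
Difference of each gene from the mean of the 2 Gy arrays on 10 Gy replicate 1 (x axis) and on 10 Gy replicate 2 (y axis), in log2 units, for all 13411 genes (grey) and 5 gene lists (colours), with a dashed line where both are equal. Most G2 and mitosis genes lie below 0 on both axes and farther from 0 on replicate 1, while cholesterol synthesis genes lie closer to the dashed line.

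The markers of the cell line were checked in the untreated channels. All 7 mesenchymal markers were above background on all 5 arrays, and so were 3 of 10 epithelial markers, the keratins Krt8, Krt18 and Krt19. Epcam and Cdh1, which define epithelium, were above background on none. Of 7 endothelial and 8 lung alveolar markers none was above background on all 5 arrays, and Pecam1, Vwf, Sftpc and Nkx2-1 were above it on none. Of 10 leukocyte markers 3 were above background on all 5 (Cd3e, Cd68 and Cd14), with Ptprc, the pan-leukocyte marker, on none. Among all these markers, 1 was called between the doses: Krt19 was at 0.13, 0.74 and 0.39 on the 2 Gy arrays and at -0.71 and -1.02 on the 10 Gy arrays, a difference of -1.29 ± 0.26 (limma, adjusted p = 0.0406).

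After 10 Gy, 139 genes were higher than after 2 Gy and 204 lower (limma), 343 in all and 2.56% of the genes tested. Of the tested genes 1.04% were called higher and 1.52% lower. Of the called genes 65 and 87 differed at least 2-fold. The 10 Gy and 2 Gy arrays of a called gene did not overlap in any of the 343, while over all genes 14% did not overlap with 10 Gy higher and 18.2% with 10 Gy lower. In 274 of the 343 the difference was larger on 10 Gy replicate 1. For 170 called genes the means of both doses lay on the same side of untreated cells, that of 10 Gy farther away, however near 0 the 2 Gy mean was. Another 99 were above untreated cells on every 2 Gy array and below on both 10 Gy arrays, and 32 were the reverse. Of the 343 called genes 94 also passed for 2 Gy against untreated cells (limma, adjusted p under 0.05) and 249 did not. Median centring instead of loess gave 494 called genes, of which 20.9% were higher, against 40.5% of the 343. The smallest adjusted p was 0.0118, so the calls lie close to the threshold. Without 2 Gy replicate 1, 2 or 3 limma called 0 genes, with 2409, 1855 and 1943 genes at an unadjusted p under 0.05. Without 5x2Gy replicate 1, 2 or 3 the counts were 5, 4 and 4. Leaving out either 10 Gy array leaves 1 array at that dose. The spread is then estimated without 10 Gy replicates, so no counts are given for those fits. Without replicate 2 the comparison lies within slide 1. All 343 had the same direction in each fit that leaves out 1 array. This was fixed in advance, since the 10 Gy and 2 Gy arrays of the called genes did not overlap.

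Anxa8, which encodes an annexin, a calcium-dependent membrane-binding protein, had the largest upward difference among called genes. Its log2 ratios were 0.67, -0.01 and 0.41 after 2 Gy and 4.78 and 2.63 after 10 Gy. The difference was 3.35 ± 0.49 (adjusted p = 0.0225). Anxa8 was not above background in the untreated channel of any of the 5 arrays and was above it in the irradiated channel of 2 of the 3 2 Gy arrays, so its ratios and its difference are inexact and no fold is given. Crip2, a LIM domain protein on the p53 target list, was already raised by 2 Gy, to 2.08, 1.40 and 1.78, and stood at 5.41 and 3.43 after 10 Gy (difference 2.67 ± 0.45, adjusted p = 0.0282). Angptl4, a secreted regulator of lipoprotein lipase, was near 0 on the 2 Gy arrays (-0.15, -0.05 and -0.04) and at 2.51 and 0.82 after 10 Gy (difference 1.74 ± 0.38, adjusted p = 0.0466). The growth factors Fgf18 (difference 1.69 ± 0.30) and Pdgfa (1.55 ± 0.26) and the axon guidance receptor Robo3 (1.88 ± 0.38) were called higher too. Eva1c, Cgref1, Ak1, Scmh1 and Inka2 were also among the 12 called genes with the largest upward difference, with differences from 1.71 to 2.07. For Scmh1 the other kept probe was at -0.06, and for Eva1c 1 of 3 kept probes was at -0.09, so these calls depend on the probe.

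Among genes called lower the largest difference belonged to Scd2, a stearoyl-CoA desaturase that makes monounsaturated fatty acids. Scd2 was at -0.20, 0.10 and 0.06 after 2 Gy and at -2.76 and -2.04 after 10 Gy (difference -2.39 ± 0.23, adjusted p = 0.0118). The 12 called genes with the largest downward difference held 6 of the mitotic apparatus and cell cycle (Cenpe, Cenpf, Nusap1, Depdc1b, Ccna2 and Ube2c) and Fdps of cholesterol synthesis. Bnip3, a mitophagy receptor induced by low oxygen, Selenbp1, a selenium-binding protein, and Rock1, a kinase of the actin cytoskeleton, were also among them. Selenbp1 was at 0.21, 0.97 and 0.80 after 2 Gy and at -1.36 and -1.25 after 10 Gy (difference -1.97 ± 0.32, adjusted p = 0.0242). Its near-identical paralogue Selenbp2 was called lower as well (-1.68 ± 0.33, adjusted p = 0.0406), and cross-hybridisation between the probes was not tested. Rock1 was at -0.26, 0.22 and 0.14 after 2 Gy and at -2.46 and -1.17 after 10 Gy (difference -1.85 ± 0.32, adjusted p = 0.0309). The other kept probe of Rock1 was at -0.45. Its irradiated channel was above background on only 1 of the 10 Gy arrays, so the size of its difference is inexact.

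Most p53 targets stood higher after 10 Gy than after 2 Gy, and few passed the test. Of 74 measured target genes 10 were called higher and none lower, with a median difference of 0.63 against -0.04 over all genes. On 10 Gy replicate 1 alone the median difference was 0.91, and on replicate 2 alone it was 0.23. The arrays did not overlap with 10 Gy higher for 38 of the 74 and with 10 Gy lower for 6. At an unadjusted p under 0.05 stood 46 of the 74, against 20.4% of all genes tested. The list was chosen with results of these data known. Among the genes that feed back on p53, Ppm1d, the phosphatase Wip1 that switches off damage signalling, was at -0.19, -0.04 and 0.09 after 2 Gy and at 1.01 and 0.78 after 10 Gy (difference 0.95 ± 0.15, adjusted p = 0.0225). Ppm1d thus stood near untreated cells after 2 Gy and above them on both 10 Gy arrays. Mdm2, the ubiquitin ligase of p53, was at 0.88, 0.20 and 0.37 and then at 2.90 and 1.38, which did not pass (1.66 ± 0.37, adjusted p = 0.0507). Ccng1, cyclin G1, was at 1.19, 1.20 and 0.97 and then at 1.55 and 2.44 (0.88 ± 0.25, adjusted p = 0.0922), the reverse order of the 10 Gy arrays, and its other kept probe was at -0.11. Trp53 itself was at 0.23, -0.01 and 0.09 after 2 Gy and at -0.18 and 0.11 after 10 Gy, and its groups overlapped (-0.14 ± 0.17, adjusted p = 0.687).

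**Figure D2:**
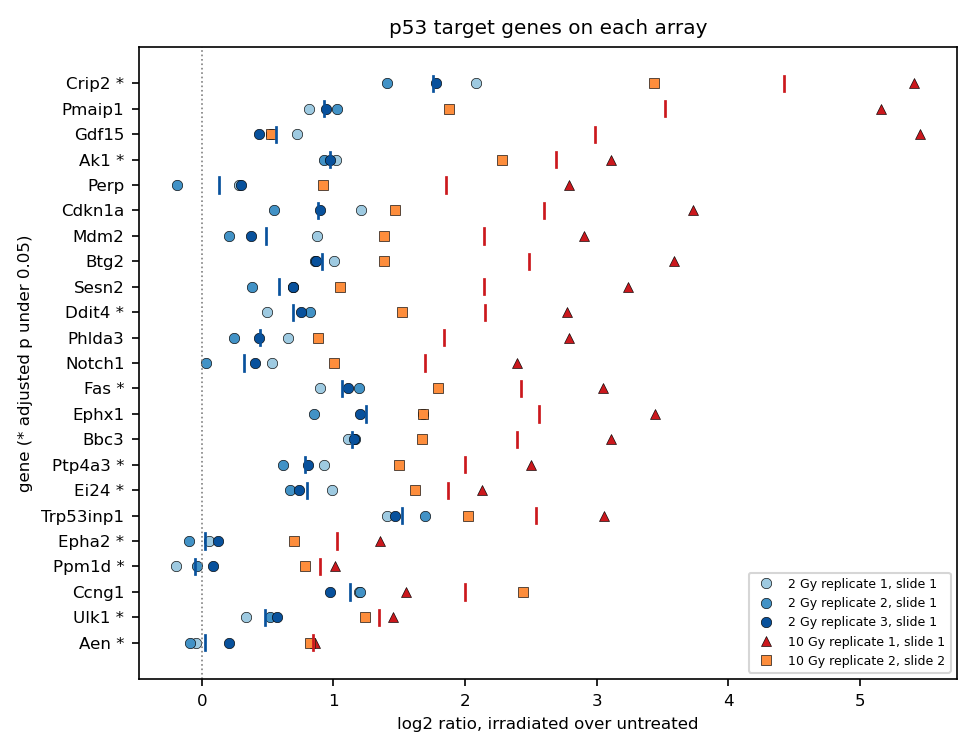
Log2 ratio of irradiated over untreated cells on each of the 5 arrays (points) for p53 target genes that were called or had a difference of at least 1, with Cdkn1a, Mdm2 and Ccng1, with group means as vertical lines (blue 2 Gy, red 10 Gy). Red triangles, 10 Gy replicate 1, lie to the right of the orange squares of replicate 2 in every row but Ccng1, and for Gdf15 the square lies among the 2 Gy points.

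The arrest genes had no call. Cdkn1a was at 1.21, 0.55 and 0.89 after 2 Gy and at 3.73 and 1.47 after 10 Gy (1.71 ± 0.51, adjusted p = 0.105). Both 10 Gy arrays were thus above all 2 Gy arrays, but the 10 Gy arrays were farther apart than the lower one was from the 2 Gy arrays. For Cdkn1a the untreated channel also moved: normalised Cy5 signal was 0.63 higher on the 10 Gy arrays and normalised Cy3 signal fell by 1.08, and 1 of the 5 arrays had a saturated spot. Of the apoptosis genes 3 of 17 were called: the death receptor Fas (0.90, 1.20 and 1.11, then 3.05 and 1.79, difference 1.36 ± 0.30, adjusted p = 0.0492), the nuclease Aen (0.82 ± 0.14) and Ei24, an endoplasmic reticulum protein (1.08 ± 0.18). Aen was alike on both 10 Gy arrays, at 0.86 and 0.82. The following 3 genes were chosen after their values were seen. The BH3-only death genes Pmaip1 (Noxa) and Bbc3 (Puma) had differences of 2.59 ± 0.71 and 1.25 ± 0.35 and were not called (adjusted p = 0.0882 and 0.0899). Pmaip1 was at 0.82 to 1.02 after 2 Gy and at 5.16 and 1.87 after 10 Gy. Gdf15, a secreted stress cytokine, was at 0.72, 0.53 and 0.44 after 2 Gy and at 5.45 on 10 Gy replicate 1, but at 0.53 on replicate 2, within the 2 Gy arrays.

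The metabolic and autophagy targets had a median of 0.87 over 20 genes (1.17 on 10 Gy replicate 1 and 0.44 on replicate 2), with 4 called. Ak1, adenylate kinase 1, was at 1.02, 0.93 and 0.97 after 2 Gy and at 3.11 and 2.28 after 10 Gy (1.72 ± 0.22, adjusted p = 0.0225). Ulk1, the kinase that starts autophagy, was at 0.34, 0.52 and 0.57 and then at 1.45 and 1.24 (0.87 ± 0.15, adjusted p = 0.0279). The other 2 were Ddit4, an inhibitor of mTORC1 (1.46 ± 0.30), and the phosphatase Ptp4a3 (1.21 ± 0.25). For Ddit4 the normalised Cy5 signal accounted for 0.46 and the Cy3 signal fell by 1.00. The median of the 7 DNA repair targets was -0.26, with none called and 2 of 7 above 0. Without any single 2 Gy array or any single 5x2Gy array limma called no p53 target. With scaling between arrays 0 were called, with a trended variance 4 and with flagged spots left out 5.

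Genes of G2 and mitosis were mostly lower after 10 Gy than after 2 Gy. Of 101 measured genes 31 were called lower and none higher, with a median difference of -1.08, and 97 of the 101 differences were below 0. The arrays did not overlap with 10 Gy lower for 72 of the 101, against 18.2% of all genes. After 2 Gy the median of the list lay slightly above untreated cells on each array (0.08, 0.10 and 0.11), and after 10 Gy it lay below them, at -1.52 on replicate 1 and -0.47 on replicate 2. Of the 31 called genes 21 were above untreated cells on all 2 Gy arrays and below on both 10 Gy arrays. In these bulk samples, fewer cells in G2 and mitosis and less of these RNAs per cell cannot be told apart.

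**Figure D3:**
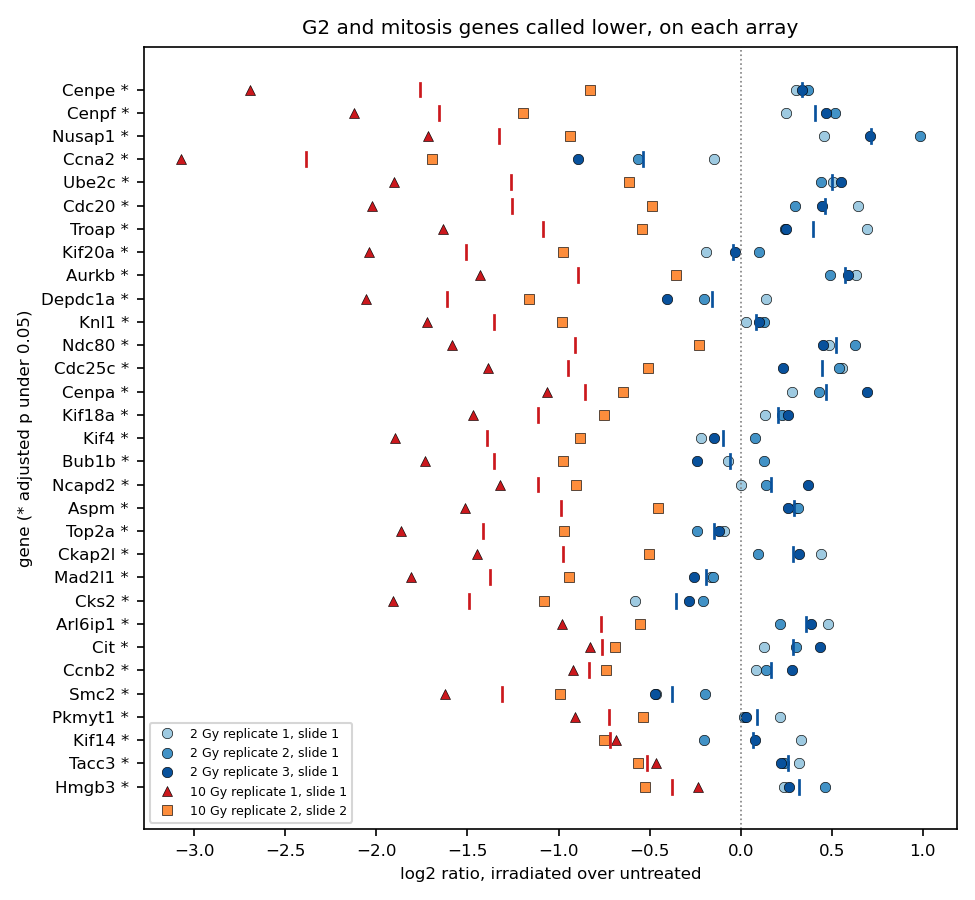
Log2 ratio of irradiated over untreated cells on each of the 5 arrays (points) for the 31 G2 and mitosis genes called lower, with group means as vertical lines (blue 2 Gy, red 10 Gy), ordered by the difference. Orange squares, 10 Gy replicate 2, lie between the 2 Gy points and replicate 1 in all rows but those of Kif14, Tacc3 and Hmgb3.

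All 6 roles within the list had similar medians, from -1.16 for kinesins and spindle genes to -0.93 for the cyclins, Cdk1 and its switches and for chromosome condensation. Among the cyclins, Ccna2, cyclin A2 of S phase and G2, was below untreated cells already after 2 Gy, at -0.14, -0.56 and -0.89, and fell to -3.08 and -1.69 (difference -1.85 ± 0.37, adjusted p = 0.041). Ccnb2, cyclin B2, was at 0.08, 0.14 and 0.28 and then at -0.92 and -0.74 (-1.0 ± 0.15, adjusted p = 0.0225). Ccnb1, cyclin B1 that drives entry into mitosis, had a larger difference with a wider spread. It was at 0.18, -0.17 and -0.27 after 2 Gy and at -3.49 and -1.05 after 10 Gy and was not called (-2.18 ± 0.54, adjusted p = 0.0656). Among the alternatives it passed in limma with median centring and with the median pixel signal, and its adjusted p was as high as 0.244.

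At the kinetochore, the site where chromosomes bind the spindle, Cenpe, a motor protein, was at 0.30, 0.37 and 0.34 after 2 Gy and at -2.69 and -0.83 after 10 Gy (difference -2.10 ± 0.43, adjusted p = 0.0411). Cenpf was at 0.25, 0.52 and 0.47 and then at -2.12 and -1.20 (-2.07 ± 0.27, adjusted p = 0.0225). Both lay above untreated cells after 2 Gy and below after 10 Gy. Cenpf was above background in the irradiated channel of only 1 of the 10 Gy arrays, so the size of its difference is inexact. Cenpa, the centromeric histone H3 variant, fell by 1.32 ± 0.19. Nusap1, which bundles spindle microtubules, was at 0.46, 0.98 and 0.71 and then at -1.72 and -0.94 (-2.05 ± 0.27, adjusted p = 0.0225). Arl6ip1 and the condensin subunit Ncapd2 fell by 1.13 ± 0.17 and 1.28 ± 0.18. Of the anaphase genes, Ube2c, the ubiquitin-conjugating enzyme of the anaphase-promoting complex, was at 0.51, 0.44 and 0.55 and then at -1.90 and -0.62 (-1.76 ± 0.30, adjusted p = 0.0296). Cdc20, an activator of that complex, was at 0.64, 0.30 and 0.45 and then at -2.02 and -0.49 (-1.72 ± 0.36, adjusted p = 0.0432). For Ube2c the normalised Cy5 signal fell by 0.93, while the normalised Cy3 signal was 0.83 higher. The count of 31 was 0 without any single 2 Gy or 5x2Gy array. It was 3 with scaling between arrays and 14 with the irradiated channel alone.

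Since 31 genes of the list fell together, the promoters of the list were searched for the CHR element (cell cycle genes homology region, TTTGAA), which the DREAM complex binds, and for the CCAAT box (CCAAT), bound by NF-Y. Both were searched on both strands over the 250 bases before the start site, in the RefSeq promoters of GRCm38.p6, and matches of the 2 can overlap at their ends. The stretches below are the 100 bases before the start site for the 5 genes with the largest downward difference among the called genes of the list with a CHR element there. They run 5′ to 3′ along the gene, with the CHR elements and CCAAT boxes of either strand in capitals (TTCAAA and ATTGG are the reversed forms).
Ube2c (chr2:164769829-164769928, plus strand): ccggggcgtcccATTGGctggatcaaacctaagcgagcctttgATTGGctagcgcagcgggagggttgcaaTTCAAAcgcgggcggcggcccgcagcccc
Cdc20 (chr4:118437344-118437443, minus strand): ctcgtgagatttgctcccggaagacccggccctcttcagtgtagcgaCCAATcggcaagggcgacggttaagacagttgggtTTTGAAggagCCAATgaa
Depdc1a (chr3:159495333-159495432, plus strand): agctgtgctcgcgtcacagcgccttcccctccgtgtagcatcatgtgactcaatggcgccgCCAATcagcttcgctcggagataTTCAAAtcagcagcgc
Top2a (chr11:99024190-99024289, minus strand): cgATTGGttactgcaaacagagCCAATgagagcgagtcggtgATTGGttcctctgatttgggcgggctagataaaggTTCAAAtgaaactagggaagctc
Ckap2l (chr2:129297213-129297312, minus strand): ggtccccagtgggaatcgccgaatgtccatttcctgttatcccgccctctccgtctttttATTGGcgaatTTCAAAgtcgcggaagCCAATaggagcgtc
The CHR element was found in 39 of 91 promoters of the list (42.9%), against 16% of all 32851 promoters in the table and 10.7% of those of the tested genes. CCAAT was found in 67.0% of the list's promoters, 33.8% of all and 35.0% of those of tested genes. The list's promoters belong to 84 of its 101 genes. Within the list, the CHR element stood in 10 of 26 promoters of called genes (38.5%) and in 29 of 65 of genes not called (44.6%), so its presence did not separate the called genes. A match is a run of letters and no shown binding site.

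Genes of cholesterol synthesis were lower after 10 Gy along the pathway, and the 10 Gy arrays were close to each other. The pathway turns acetyl-CoA into mevalonate and squalene, closes lanosterol and converts it to cholesterol, under the transcription factor SREBP-2 (Srebf2). Of 29 measured genes 14 were called lower and none higher, and 26 differences were below 0. The median difference was -0.96, with -1.25 on 10 Gy replicate 1 and -0.82 on replicate 2. The arrays did not overlap with 10 Gy lower for 22 of the 29, against 18.2% of all genes. On the way to lanosterol 7 of 11 genes were called. Hmgcs1, which makes HMG-CoA, was at -0.19, -0.30 and -0.11 after 2 Gy and at -1.91 and -1.02 after 10 Gy (-1.26 ± 0.23, adjusted p = 0.0334). The 3 enzymes that act on mevalonate, the mevalonate kinase Mvk, the phosphomevalonate kinase Pmvk and the decarboxylase Mvd, lay above untreated cells on every 2 Gy array and below on both 10 Gy arrays. Mvk was at 0.71, 0.65 and 0.80 and then at -0.47 and -0.34 (-1.13 ± 0.15, adjusted p = 0.0225). Pmvk and Mvd fell by 1.13 ± 0.16 and 1.00 ± 0.15. Fdps, the farnesyl diphosphate synthase, was at -0.32, -0.08 and -0.34 and then at -1.90 and -2.17 (-1.79 ± 0.18, adjusted p = 0.0118), the lower value being that of replicate 2.

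**Figure D4:**
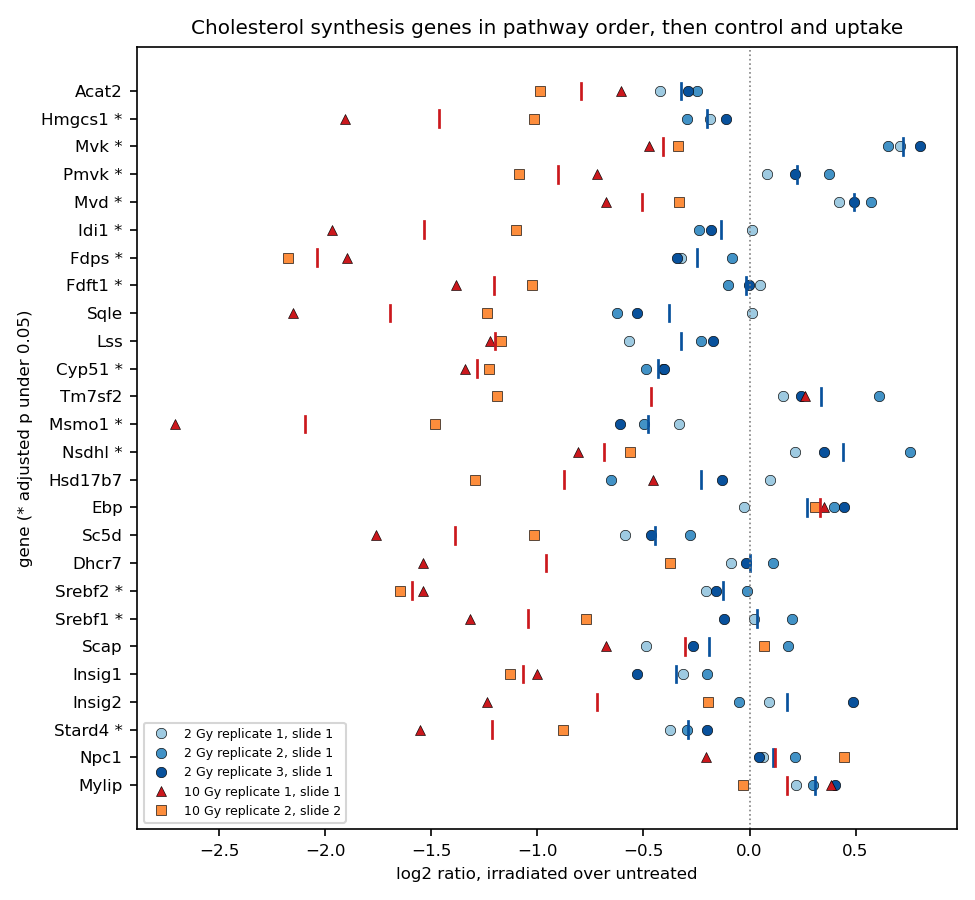
Log2 ratio of irradiated over untreated cells on each of the 5 arrays (points) for 26 of the 29 cholesterol genes, from Acat2 to Dhcr7 in pathway order and then the control and uptake genes, with group means as vertical lines (blue 2 Gy, red 10 Gy). The groups overlap in 6 rows (Tm7sf2, Hsd17b7, Ebp, Scap, Npc1 and Mylip), while Fdps and Srebf2 have both 10 Gy arrays well to the left of the 2 Gy arrays.

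After lanosterol 4 of 9 genes were called. Among them were Msmo1 (-1.62 ± 0.30), Nsdhl (-1.12 ± 0.18) and the lanosterol demethylase Cyp51 (-0.85 ± 0.15). Of the control and uptake genes 3 of 9 were called. Srebf2 was at -0.21, -0.01 and -0.16 and then at -1.54 and -1.65 (-1.47 ± 0.19, adjusted p = 0.0225), but 1 of its 4 kept probes was at 0.23. Srebf1 (-1.08 ± 0.22) and the sterol carrier Stard4 (-0.93 ± 0.19) were called lower as well. The count of 14 was 0 without any single 2 Gy array. It was 3, 2 and 2 without 5x2Gy replicate 1, 2 or 3, and 6 with scaling between arrays. Fatty acid synthesis, which SREBP-1 governs, had 1 call of 15 genes, Scd2, and a median of -0.46. Its members Elovl6, an elongase, and Scd1 were at -1.48 ± 0.50 and -1.20 ± 0.34 without passing (adjusted p = 0.144 and 0.0974).

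SREBP-2 acts on many promoters together with NF-Y, and the promoters of the cholesterol list were searched in the same way. The CCAAT box stood in 20 of 29 promoters of the list (69.0%), which belong to 21 of the 29 genes. All 10 called genes with a promoter in the table had it in at least 1 promoter, and 9 of 11 genes not called. The core of the sterol regulatory element (CACCCCA, both strands), whose end can overlap the start of CCAAT, stood in 10.3% of the list's promoters and in 6.68% of all. The 100 bases before the start site follow for the 3 called genes of the list with the largest downward difference and a CCAAT box in that stretch, with CCAAT boxes of either strand in capitals. The sterol core was not found in these 3 stretches.
Msmo1 (chr8:64733579-64733678, minus strand): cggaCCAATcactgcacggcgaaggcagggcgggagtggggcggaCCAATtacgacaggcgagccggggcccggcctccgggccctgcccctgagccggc
Idi1 (chr13:8885506-8885605, plus strand): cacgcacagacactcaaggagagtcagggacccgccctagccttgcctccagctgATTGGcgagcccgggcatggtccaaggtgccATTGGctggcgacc
Hmgcs1 (chr13:119690251-119690350, plus strand): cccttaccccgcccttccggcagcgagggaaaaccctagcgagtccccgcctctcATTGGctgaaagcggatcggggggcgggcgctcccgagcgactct
These stretches show where the letters lie, and nothing follows from them about binding.

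**Figure D5:**
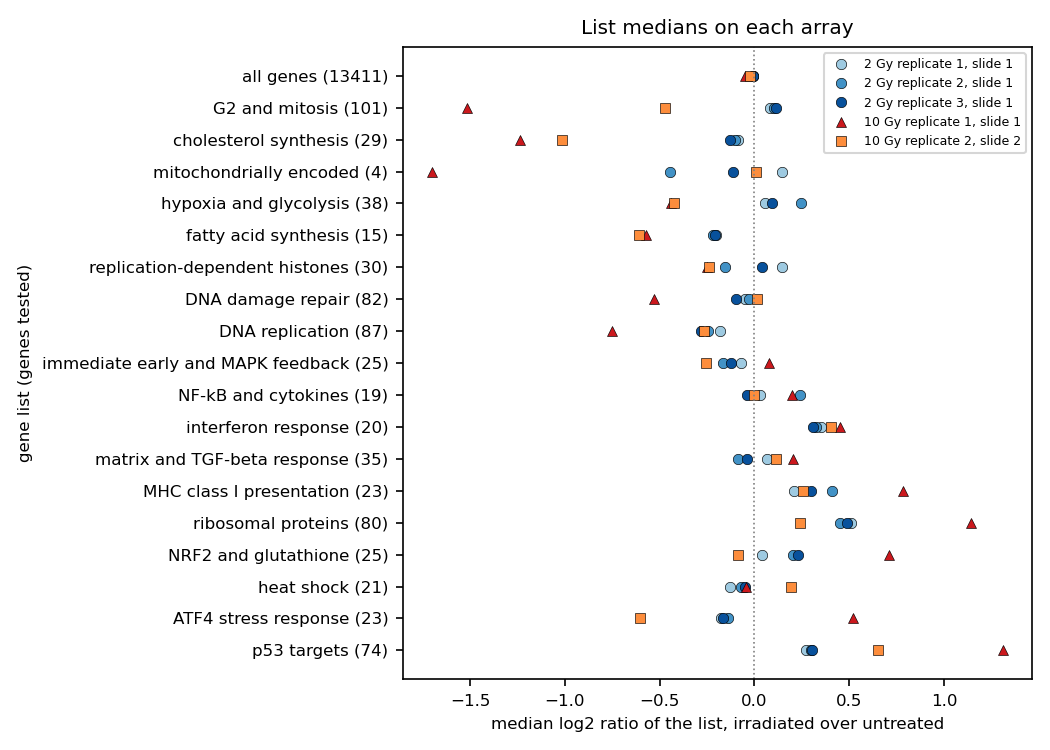
Median log2 ratio of irradiated over untreated cells on each of the 5 arrays (points) for all genes and for 18 gene lists, ordered by the median difference, with the number of genes tested in parentheses. The 10 Gy arrays lie close together for the cholesterol, hypoxia and fatty acid lists and far apart for the ribosomal protein, ATF4 and mitochondrially encoded lists.

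Genes of hypoxia and glycolysis were lower after 10 Gy, with little difference between the 10 Gy arrays. Hypoxia-inducible factor HIF-1 drives these genes when oxygen is low. Of 38 genes 9 were called lower and none higher, with a median of -0.54, and of -0.58 on 10 Gy replicate 1 and -0.54 on replicate 2. The arrays did not overlap with 10 Gy lower for 28, against 18.2% of all genes. Among the transporters, Slc16a3, which exports lactate, was at -0.31, 0.15 and -0.14 after 2 Gy and at -1.66 and -1.40 after 10 Gy (-1.43 ± 0.17, adjusted p = 0.0225), and the glucose transporter Slc2a1 was at -0.53, -0.21 and 0.03 and then at -1.79 and -1.56 (-1.44 ± 0.24, adjusted p = 0.0279). Pdk1, which keeps pyruvate out of mitochondria, was at -0.53, 0.12 and -0.14 and then at -1.27 and -1.61 (-1.26 ± 0.23, adjusted p = 0.0334). These 3 were the only calls among 23 genes of glucose uptake and glycolysis. Of 15 other HIF targets 6 were called. Bnip3 was at -0.52, 0.33 and -0.11 and then at -2.53 and -1.42 (-1.87 ± 0.32, adjusted p = 0.0286), Kdm3a, a histone demethylase, fell by 1.09 ± 0.14 and Ankrd37 fell by 0.98 ± 0.17. Gapdh, a glycolytic enzyme often used as a reference, was at 0.41, 0.19 and 0.55 and then at 0.05 and 0.02 (-0.35 ± 0.15, adjusted p = 0.23), and 1 of the 5 arrays had a saturated spot. The count of 9 was 0 without any single 2 Gy or 5x2Gy array and 1 with scaling between arrays.

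DNA replication and repair genes showed smaller differences, carried by 10 Gy replicate 1. Of all genes tested 1.52% were called lower. Of 87 replication genes 3 were called lower: Rbl1, the pocket protein p107 (-1.29 ± 0.27), and the polymerase alpha subunits Prim1 (-0.82 ± 0.16) and Pola2 (-0.92 ± 0.20). The list median was -0.23, with -0.45 on replicate 1 and 0.02 on replicate 2. Prim1 was at -0.16, -0.08 and -0.07 after 2 Gy and at -1.16 and -0.68 after 10 Gy (adjusted p = 0.0406). Of 82 damage repair genes 3 were called lower, with a median of -0.24. They were Rev3l, the catalytic subunit of the translesion polymerase zeta (-1.14 ± 0.18), the checkpoint kinase Chek1 (-0.78 ± 0.15) and Fancd2 of the Fanconi pathway (-0.66 ± 0.14). Chek1 was at -0.20, -0.20 and -0.42 and then at -1.18 and -0.92 (adjusted p = 0.0382). Of 30 histone genes H2ac1 was called lower (-0.91 ± 0.18), but its normalised Cy5 signal did not move (-0.00171) while Cy3 was 0.91 higher.

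Several lists without a called gene moved in opposite directions on the 10 Gy arrays. The 23 genes of the ATF4 stress response had a median difference of 0.70 on 10 Gy replicate 1 and -0.36 on replicate 2, with 18 of 23 on opposite sides of the 2 Gy mean and 2 at an unadjusted p under 0.05, a mark that 20.4% of all genes reached. Atf3, a stress-induced transcription factor, was at -0.60, -0.23 and -0.52 after 2 Gy and at 1.98 and -0.30 after 10 Gy (1.29 ± 0.50, adjusted p = 0.185). Only replicate 1 stood above the 2 Gy arrays there. The 80 ribosomal protein genes were at 0.59 and -0.23, with 54 on opposite sides and 8 at an unadjusted p under 0.05, and a spot was saturated for 60 of the 80, whose ratios are inexact for that reason. The 4 mitochondrially encoded transcripts were at -1.78 and 0.08, and 3 of them had a saturated spot, so these values are inexact. The 23 genes of MHC class I presentation were at 0.37 and -0.13, with 3 at an unadjusted p under 0.05, and the peptide transporter Tap1 was at 0.44, 0.67 and 0.87 and then at 2.15 and 1.09 (0.96 ± 0.27, adjusted p = 0.097).

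The remaining lists held few calls, beside 2.56% called of all genes tested. Some of them also split between the 10 Gy arrays. The NRF2 and glutathione list had a median difference of 0.45 on replicate 1 and -0.21 on replicate 2. Of its genes 17 of 25 lay on opposite sides of the 2 Gy mean, against 47.0% of all genes. The immediate early and MAPK list was at 0.32 and -0.04, and the NF-kB and cytokine list at 0.12 and -0.09. Of 25 NRF2 and glutathione genes the quinone reductase Nqo1 was at 0.50, 0.73 and 0.59 after 2 Gy and at 2.49 and 1.74 after 10 Gy (1.50 ± 0.29, adjusted p = 0.0382). The glutathione synthetase Gss, the other call of this list, was at 0.38, 0.24 and 0.35 and then at 1.35 on both 10 Gy arrays (1.03 ± 0.15, adjusted p = 0.0225). The arrays thus did not overlap for either gene. Of 21 heat shock genes the small chaperone Hspb8 was called higher (1.03 ± 0.21, adjusted p = 0.0406), and Cryab, another small chaperone, was at 1.14, 0.02 and 0.46 and then at 4.95 and 1.70 without a call (2.78 ± 0.73, adjusted p = 0.0765), the largest difference of any gene not called. Smad7, an inhibitor of TGF-beta signalling, was the 1 call of 35 matrix and TGF-beta genes (0.71 ± 0.15). It was above background in the irradiated channel of only 1 2 Gy array and in the untreated channel of 3 of the 5 arrays, so this difference is inexact. The MAPK feedback inhibitors Spry1 (-1.06 ± 0.19) and Spred1 (-0.91 ± 0.16) were the calls of 25 immediate early and MAPK genes, both lower. Of 19 cytokine genes Cxcl5, a neutrophil-attracting chemokine, was called: it was at 1.31, 0.86 and 0.87 after 2 Gy and at -0.39 and -0.000433 after 10 Gy (-1.21 ± 0.19, adjusted p = 0.0229). Of 20 interferon response genes Ddx58, the RNA sensor RIG-I, was called lower (adjusted p = 0.0406). In the irradiated channel Ddx58 was above background on 2 of the 3 2 Gy arrays and on neither 10 Gy array. In the untreated channel it was above background on 0 of the 5 arrays. Its call thus rests on values near the floor, and no fold is given. Among the alternatives its adjusted p in limma was as high as 0.876.

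The differences lay mainly in the irradiated channel. For 333 of the 343 called genes the normalised Cy5 signal differed more between the doses than the normalised Cy3 signal. With Cy5 alone limma called 161 genes, and with Cy3 alone, where all arrays hold untreated cells, it called 5. At an unadjusted p under 0.05 stood 2329 genes with Cy5 alone and 1694 with Cy3 alone. The SDs of the differences over genes were 0.368 and 0.179. Of the 343, 129 were called in the same direction with Cy5 alone and the direction turned for 2. No array had the dyes exchanged, so a dye effect specific to a gene cancels between the doses only where it is equal on each array. Whether it was equal was not tested.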

How the data were processed

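Each array held Cy5-labelled RNA of irradiated cells and Cy3-labelled RNA of untreated cells after amplification of the RNA, per the labels' protocols. Per the file headers, the deposited tables give raw spot intensities (mean and median pixel signal), with no log, normalisation or background correction and no background column. The authors' deposited table of normalised values, with column medians from -0.00454 to 0.00867 and read as log2 ratios from its match to the intensities, was an alternative. Whether the authors filtered spots, and what a spot flag means, is not given in the sources used here. With limma 3.58.1 in R 4.3.3, mean intensities were background-corrected by normexp (offset 50) and loess-normalised within each array. Replicate spots were combined into their mean. The filter on low signal used the negative controls as its floor (median plus 2.6 robust SDs, 153 controls). It retained probes that exceeded this floor in Cy5 or Cy3 on 2 or more of all 8 arrays. Signal on 5x2Gy arrays alone could therefore be enough. Of 41174 probes 21685 were kept. Symbols came from the RefSeq table through the accession for 27191 probes and from the array design for 7753, and 6230 had none. The kept probe with the highest mean signal over all 8 arrays stood for its gene. All 8 arrays were fitted with 1 mean per regimen, and the Benjamini-Hochberg adjustment ran over 13411 genes. Single channels were compared after Aquantile normalisation.

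The members and lists were chosen with earlier results of these data known. Genes were named by a fixed rule: the 12 largest differences in each direction among called genes without overlap and with an established name, the 6 members of each list with the smallest p, and Cdkn1a, Mdm2, Ccng1, Trp53, Gapdh and Ccnb1, among others. The rule also took the 5 genes in each direction with the largest gap between the 10 Gy arrays. Other genes were chosen after their values were seen, and some genes the rule takes are not reported here. Promoters came from the RefSeq table of GRCm38.p6. Slide, replicate number, array weights, other background corrections, scalings and filters were tried as alternatives.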

Additional observations from a re-analysis of the deposited data

Results flagged for a closer look

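For 7 of the genes with the largest differences every 2 Gy array lay on one side of untreated cells and both 10 Gy arrays on the other. Angptl4 lay below untreated cells after 2 Gy and above them after 10 Gy, with a difference of 1.74. The others lay above untreated cells after 2 Gy and below them after 10 Gy: Cenpe with a difference of -2.10, Cenpf with -2.07, Depdc1b with -2.05, Nusap1 with -2.05, Selenbp1 with -1.97 and Ube2c with -1.76. These 7 were picked from genes already called between the doses in limma. That each passed there was therefore fixed by the choice and is no added support. Against untreated cells at 2 Gy itself, only Nusap1 of the 7 passed (limma, adjusted p = 0.0199), while the others ran from 0.0502 for Selenbp1 to 0.852 for Angptl4. An opposite response at 2 Gy is therefore not shown for these 6.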

How the results depend on the processing

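The 343 calls (139 higher, 204 lower) rest on 5 arrays and on a spread shared with the 5x2Gy arrays. No call changed sign under any alternative except 2 with the irradiated channel alone, where 161 genes were called (80 higher, 81 lower). In the fits that leave out 1 array a call could not change sign, since the groups of each called gene did not overlap. The medians of the p53, mitosis, cholesterol and hypoxia lists kept their sign throughout. Counts within 1.5 times came from no background correction (364), normexp without offset (323), the deposited value table (360), the median pixel signal (319), no filter (337), a stricter filter (349), the mean of all kept probes (298), a trended variance (288) and flagged spots left out (324). Median centring gave 494, with 391 lower, and only 27 genes (4 higher, 23 lower) were called with scaling between arrays. Array weights, 0.189 for each 10 Gy array, left 2 (1 higher, 1 lower), and a fit of only the 5 arrays left 0, 0 and 0 in all, higher and lower, with 1828 genes at an unadjusted p under 0.05. The slide as a fixed block compares 10 Gy replicate 1 alone with the 2 Gy arrays. Its spread holds no 10 Gy replicates, so no count is given for that fit. With the slide as a random block (correlation 0.697) limma called 2905 (1041 higher, 1864 lower). The list medians then moved with the fixed block to 0.91 for p53, -1.57 for G2 and mitosis and -1.25 for cholesterol, and cholesterol moved to -1.18 with the random block and to -1.16 with median centring. Cholesterol was at -0.80 and hypoxia at -0.44 with the mean of all kept probes, and hypoxia was at -0.44 with the irradiated channel alone. Over the fits that leave out 1 array, counts ran from 0 to 4302, higher from 0 to 1620 and lower from 0 to 2682. The medians ran from 0.23 to 0.91 for p53, -1.57 to -0.47 for G2 and mitosis, -1.25 to -0.82 for cholesterol and -0.61 to -0.52 for hypoxia. ATP6, a mitochondrially encoded gene at 0.29 with a saturated spot on 4 of the 5 arrays and so inexact, reversed to -0.81 with the slide as a fixed block and without 10 Gy replicate 2, and was at 1.39 without replicate 1. Why the counts move was not tested.

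Deviations of 2 Gy and 10 Gy arrays with the same replicate number correlated at 0.114 and 0.051. With only 2 arrays of 10 Gy, on different slides, their deviations mirror each other. These values therefore cannot show whether the replicate numbers pair the arrays. With the replicate number as a block limma called 0 genes (0 higher, 0 lower), with 2076 at an unadjusted p under 0.05.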

Other observations

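Among the called genes 263 were on no list, and the following were chosen after their values were seen. Of 5 measured genes of the HoxD cluster, which encodes transcription factors of body patterning, 3 were called lower, and of 20 measured genes of the other Hox clusters limma called none, with 5 at an unadjusted p under 0.05. Hoxd9 was at 0.20, 0.24 and 0.26 after 2 Gy and at -0.95 and -1.11 after 10 Gy (difference -1.26 ± 0.16, limma adjusted p = 0.0225). Hoxd10 was at 0.35, 0.52 and 0.53 and then at -1.45 and -0.66 (-1.52 ± 0.23), and Hoxd8 fell by 0.83 ± 0.13. The paralogous transporters Abcb1b, a P-glycoprotein that exports drugs, and Abcb4, which exports phospholipids, were higher by 1.12 ± 0.21 and 1.25 ± 0.25, and cross-hybridisation between their probes was not tested. Areg, a ligand of the EGF receptor, was below untreated cells after 2 Gy (-0.47, -0.35 and -0.29) and above them after 10 Gy (1.35 and 0.64, difference 1.37 ± 0.21, adjusted p = 0.0225). The MYC antagonists Mxd1 (0.82 ± 0.14) and Mxd4 (1.46 ± 0.32) were called higher, and the death inhibitor Bcl2 was at -0.06, 0.04 and -0.02 and then at -0.84 and -0.72 (-0.77 ± 0.13, adjusted p = 0.0279). The nuclear noncoding RNA Malat1 was at 0.40, 0.56 and 0.51 and then at -0.81 and -0.55 (-1.17 ± 0.14, adjusted p = 0.0225).

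The calls without any single 2 Gy or 5x2Gy array numbered 5 or fewer, so these genes carry the same limits as the rest.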
